A study of Mus musculus with 10 samples.

Results

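The extracellular matrix genes described here are 50 genes chosen by symbol from the 32648 genes of the deposited table: collagens, laminins, basement membrane linkers, elastic fibre proteins, small leucine-rich proteoglycans, adhesive glycoproteins, and genes of crosslinking and remodelling. All 50 were found in the table, and 48 of them had enough counts to be tested. They were measured by RNA-seq in renin cells, the specialised mural cells of the kidney's afferent arterioles that make and release renin. The cells came from C57BL/6 mice, adults of 8 to 12 weeks, that carry Ren1c-YFP, a reporter in which renin regulatory sequence drives yellow fluorescent protein. The kidney cortex was digested with enzymes, and 1000 living cells with the fluorescent protein were sorted from each kidney, so that every library is a pool from 1 kidney of 1 mouse. All animals carried the reporter and all were operated on 72 h earlier. In the coarctation group (3 mice) the aorta was narrowed at a level between both renal artery origins. In the sham group (2 mice) the aorta was neither exposed nor narrowed, so that sham differs from coarctation by exposure of the vessel as well as by its narrowing. Left and right kidneys were kept apart, which gives 3 coarctation left, 3 coarctation right, 2 sham left and 2 sham right libraries. Such a narrowing puts one kidney above it and the other below, but pressures were not given in the labels.

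Basement membranes are thin sheets built from laminin trimers and networks of collagen IV, which nidogens and heparan sulfate proteoglycans tie together. Around arterioles each mural cell is wrapped in such a sheet, while interstitial matrix is made of fibrillar collagens, elastic fibres and small proteoglycans that coat collagen fibrils. Adhesive glycoproteins such as fibronectin and vitronectin connect matrix to integrins on cells, lysyl oxidases crosslink collagen and elastin, and metalloproteinases and their tissue inhibitors, the TIMPs, set how fast matrix is removed. Renin cells share their lineage with vascular smooth muscle and pericytes, cell types known to deposit both basement membrane and interstitial matrix.

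Levels are given as TPM, an abundance unit scaled by transcript length and library that allows genes to be compared. Values of a group follow the order of mouse 1, 2 and 3 for coarctation and mouse 1 and 2 for sham. By their median over the 10 libraries, 14 of the 50 genes stood at 10 TPM or more, 21 between 1 and 10 TPM, and 15 below 1 TPM. The 5 most abundant were Sparc, Bgn, Timp3, Col18a1 and Lamb2. Together these made up 53.9% of the summed TPM of the 50 genes, with 45.4% in the lowest and 62.0% in the highest library. The summed level of all 50 was 574 to 719 TPM in coarctation left kidneys, 528 to 776 in coarctation right, 575 to 710.5 in sham left and 593 to 649.7 in sham right, so that the ranges of the 4 groups overlapped.

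**Figure D1:**
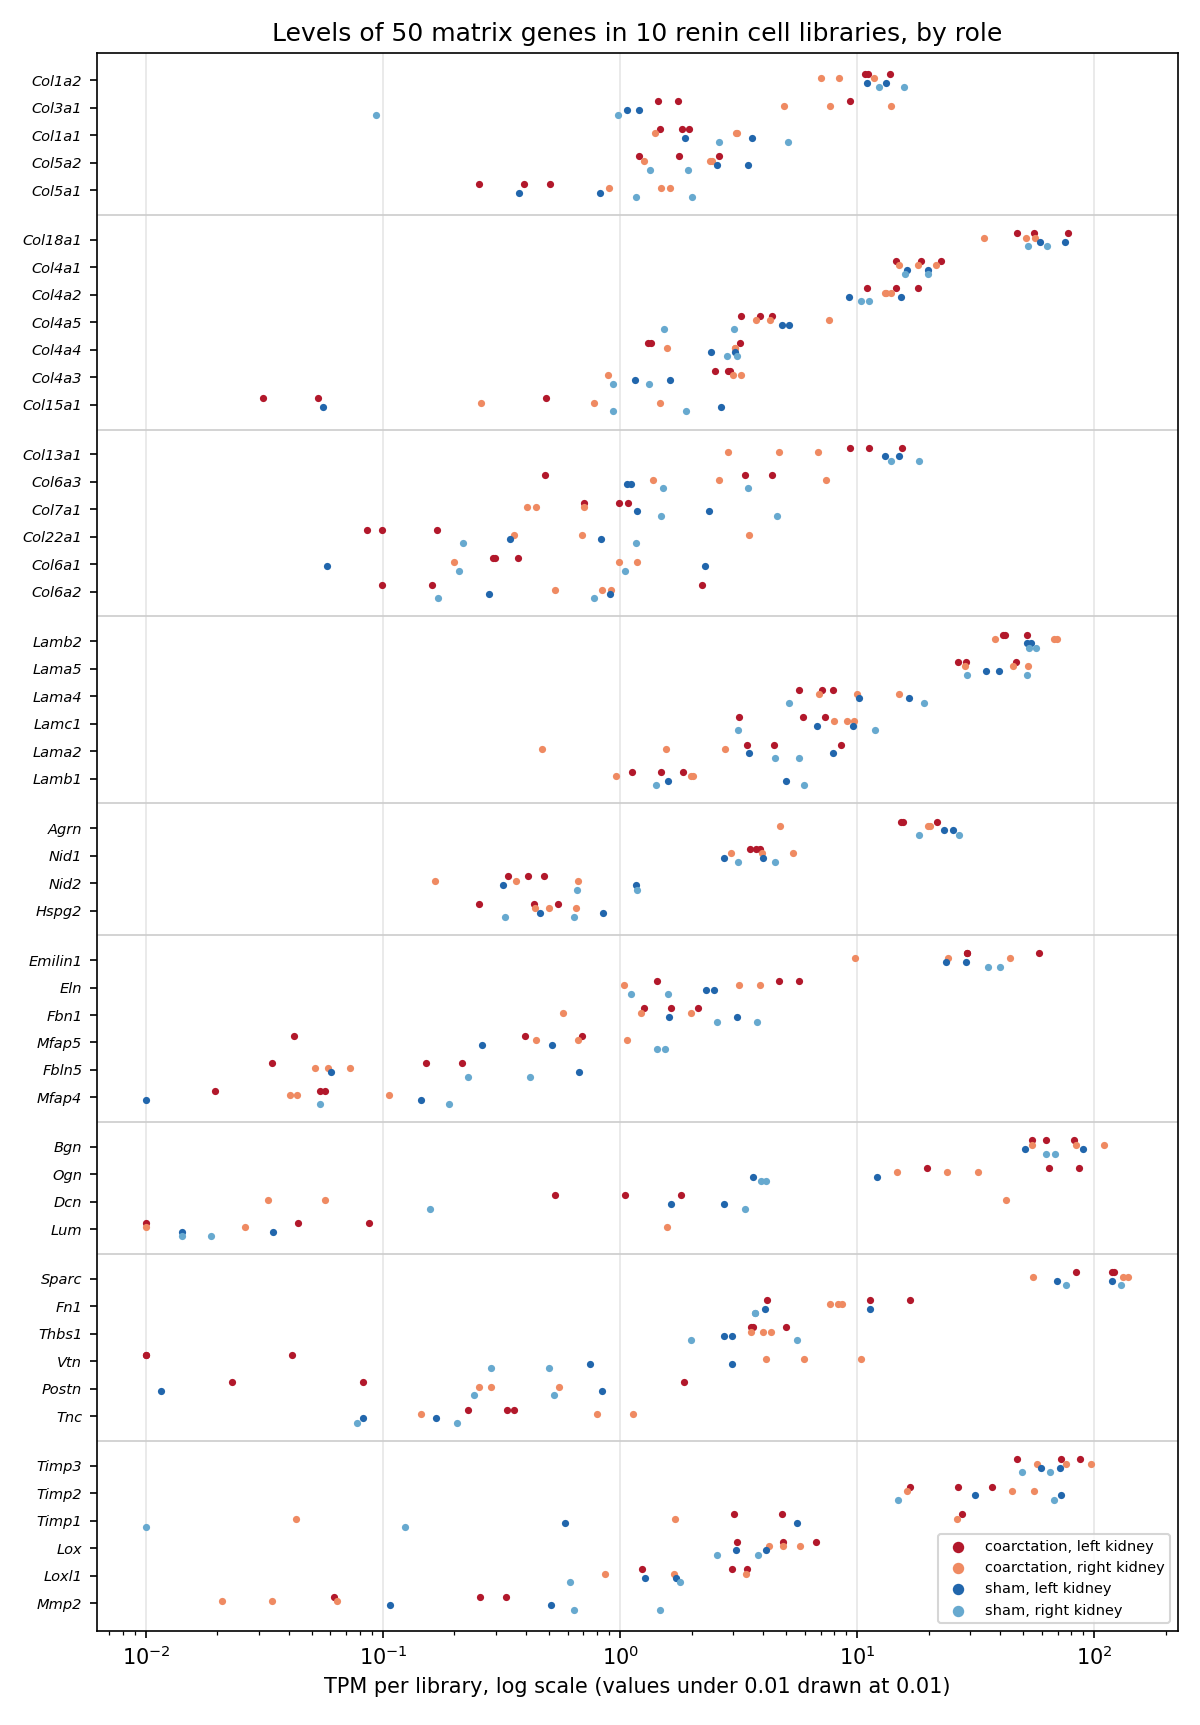
Level of each of the 50 matrix genes in each of the 10 libraries (horizontal axis, TPM on a log scale, values under 0.01 drawn at 0.01), with genes in rows by role and groups by colour. Sparc, Bgn, Timp3, Col18a1 and Lamb2 lie near the right edge with little spread, while Vtn, Timp1, Dcn and Lum spread over most of the axis, Dcn from 0.0326 to 42.5 TPM.

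The libraries held 20029817 to 32006229 estimated counts each. Both libraries of sham mouse 1 lay apart from the rest on the first principal component (22.7% of variance), and both of coarctation mouse 1 on the second (15.0%), so the results below give values without either mouse where the difference moves by over 1.5 times or its unadjusted p crosses 0.05. The sorted identity was clear from the renin gene Ren1, at 5451 to 48620 TPM, and from the smooth muscle actin gene Acta2, at 843 to 2915 TPM. Ren1 itself was lower in coarctation right than left kidneys, by a log2 difference of -2.20 (SE 0.35, adjusted p = 0.165 by edgeR's quasi-likelihood test without a mouse term). Markers of other cells were present too: proximal tubule markers summed to 839 to 10129 TPM, distal nephron markers to 90.7 to 984 TPM and leukocyte markers to 47.5 to 588 TPM. Over all libraries Kap made up 82.7%, Atp6v1g3 45.0% and Cd74 59.4% of these sums, in that order. Of the 7 measured fibroblast markers, 5 were under 1 TPM in every library, among them Pdgfra, Dpt and Col14a1. The summed fibroblast list, 14.8 to 80.4 TPM, was mostly Mfap2. RNA of a pool of cells cannot tell fewer cells of a type from less RNA per cell, which holds for every result below.

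Among the fibrillar collagens, the rods of interstitial matrix, Col1a2 was the most abundant. Col1a2 was at 11.1, 13.7 and 10.8 TPM in coarctation left kidneys, 11.8, 8.34 and 7.07 in coarctation right kidneys, 13.2 and 11.0 in sham left kidneys and 12.4 and 15.7 in sham right kidneys. Its level stayed within 7.07 to 15.7 TPM. The left kidneys of coarctation and sham mice overlapped, and the coarctation right values were just below the sham right values. Col1a1 was at 1.48, 1.94 and 1.82 TPM in coarctation left kidneys, 3.11, 3.09 and 1.40 in coarctation right kidneys, 3.60 and 1.88 in sham left kidneys and 5.11 and 2.61 in sham right kidneys. Both genes encode chains of type I collagen, whose usual trimer holds more of the chain from Col1a1 than of the chain from Col1a2. Here the Col1a2 message exceeded the Col1a1 message in 10 of 10 libraries, with a TPM ratio of 2.42 to 7.51 and a median of 5.46. Col1a1 was named after its values were seen. Col5a2, a chain of the type V collagen that nucleates fibrils, lay between 1.20 and 3.48 TPM, and its partner Col5a1 between 0.253 and 2.00 TPM.

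Col3a1 encodes type III collagen, the fibrillar collagen of distensible tissues such as vessel walls (chromosome 1, 45311538 to 45349706 on GRCm38, plus strand, 51 exons). Col3a1 was at 1.45, 1.76 and 9.35 TPM in coarctation left kidneys, 13.9, 7.69 and 4.90 in coarctation right kidneys, 1.20 and 1.07 in sham left kidneys and 0.976 and 0.0934 in sham right kidneys. Each coarctation library held more Col3a1 than any sham library, although coarctation left mice 1 and 2 lay close above sham. The libraries are paired kidneys of 3 and 2 mice. On log2 CPM, 9.73% of all tested genes were higher in coarctation without overlap on the left and 7.21% on the right. Between the kidneys of a coarctation mouse the order differed: right was higher in mice 1 and 2 and lower in mouse 3.

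Of the basement membrane collagens, Col18a1, Col4a1 and Col4a2 had higher means over all libraries than any of the fibrillar collagens. Col18a1 encodes a collagen with heparan sulfate chains whose end fragment is endostatin. Col18a1 was at 47.2, 77.4 and 55.6 TPM in coarctation left kidneys, 34.3, 56.1 and 51.3 in coarctation right kidneys, 59.2 and 75.4 in sham left kidneys and 52.3 and 63.2 in sham right kidneys. Within every mouse of both groups the right kidney held less than the left, by log2 differences of -0.55, -0.62, -0.35 in coarctation mice 1, 2 and 3 and of -0.26 and -0.25 in sham mice 1 and 2. Col4a1 encodes one of the chains of the collagen IV found in nearly all basement membranes. Col4a1 was at 14.6, 22.7 and 18.6 TPM in coarctation left kidneys, 15.0, 21.5 and 18.1 in coarctation right kidneys, 16.3 and 20.0 in sham left kidneys and 15.9 and 19.9 in sham right kidneys. Of the 50 genes it varied least, with a coefficient of variation of 15.2% and a highest value 1.56 times the lowest. Its partner chain Col4a2 lay at 9.19 to 18.1 TPM, below Col4a1 in 10 of 10 libraries. The exons of Col4a1 and Col4a2 overlap on opposite strands in the annotation, and whether counting used strand is not given in the sources used here.

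The remaining collagen IV chains form the network of the mature glomerular basement membrane, made mainly by podocytes, and of some tubular membranes. Col4a3 was at 2.90, 2.86 and 2.52 TPM in coarctation left kidneys, 3.00, 3.23 and 0.893 in coarctation right kidneys, 1.63 and 1.15 in sham left kidneys and 1.33 and 0.933 in sham right kidneys. In TPM the coarctation left kidneys were all above the sham left kidneys. Col4a4 was at 3.20, 1.31 and 1.35 TPM in coarctation left kidneys, 1.58, 3.04 and 3.05 in coarctation right kidneys, 3.05 and 2.42 in sham left kidneys and 2.83 and 3.12 in sham right kidneys. Col4a4 did not separate the groups. It was chosen for description after its values were seen, because Col4a3 and Col4a4 are read away from each other on opposite strands of chromosome 1 (Col4a3 at 82586921 to 82722059, plus strand, 52 exons, and Col4a4 at 82448423 to 82586849, minus strand, 48 exons). The interval between their starts, from RefSeq and GENCODE on GRCm38.p6 (chr1:82586850-82586920, plus strand, 71 bases), is shown because both genes share it. It has 69.0% G and C, against a median of 52.4% over RefSeq promoters of 250 bases.
Col4a4 to Col4a3: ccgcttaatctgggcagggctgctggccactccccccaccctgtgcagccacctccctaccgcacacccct
None of the 4 motifs searched on both strands occurred in it: the TATA box (letters TATAAA), the CCAAT box (CCAAT), the GC box (GGGCGG) and the cAMP response element (TGACGTCA), the last being the kind of element through which cAMP acts on the renin gene. In windows of the same length ending at the start of all 32851 promoters, these letters were found in 4.41%, 13.3%, 20.7% and 0.91%.

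Col4a5 was at 4.39, 3.23 and 3.87 TPM in coarctation left kidneys, 3.74, 7.59 and 4.28 in coarctation right kidneys, 5.14 and 4.84 in sham left kidneys and 1.53 and 3.02 in sham right kidneys. This chain joins those of Col4a3 and Col4a4 in the same network, its lowest value was in the right kidney of sham mouse 1, and coarctation was below sham in left kidneys and above it in right kidneys without overlap. Podocyte markers summed to 58.8 to 83.2 TPM in coarctation left, 44.7 to 56.3 in coarctation right, 53.0 to 89.3 in sham left and 70.2 to 98.3 in sham right kidneys. Coarctation right kidneys thus had the lower podocyte sums and sham right the higher ones, while Col4a3 was lower in sham right than in 2 of the 3 coarctation right kidneys. The part of podocyte RNA in these chains was not tested. Col15a1, another collagen of basement membrane zones, lay at 0.031 to 2.66 TPM.

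Of the microfibrillar, anchoring and transmembrane collagens, Col13a1 was the most abundant. It encodes a membrane-spanning collagen found at cell adhesion sites (chromosome 10, 61838236 to 61979108, minus strand, 41 exons). Col13a1 was at 15.5, 9.32 and 11.2 TPM in coarctation left kidneys, 2.86, 6.80 and 4.69 in coarctation right kidneys, 15.0 and 13.1 in sham left kidneys and 18.2 and 13.9 in sham right kidneys. The coarctation right kidneys were all below the lowest value of every other group. Col6a3 was at 4.37, 0.484 and 3.37 TPM in coarctation left kidneys, 2.61, 7.38 and 1.37 in coarctation right kidneys, 1.11 and 1.07 in sham left kidneys and 1.52 and 3.46 in sham right kidneys. This chain of the microfibril-forming type VI collagen ranged widely within every group except sham left. Its companion chains Col6a1 (0.0577 to 2.28 TPM) and Col6a2 (0.0986 to 2.22 TPM) had lower means over all libraries, but were not lower in every library. Col22a1 was at 0.0853, 0.169 and 0.0994 TPM in coarctation left kidneys, 0.691, 3.48 and 0.358 in coarctation right kidneys, 0.343 and 0.828 in sham left kidneys and 1.16 and 0.218 in sham right kidneys. Col22a1, a collagen of tissue junctions, was low in all 3 coarctation left kidneys and highest in the right kidney of coarctation mouse 2. Col7a1 was at 0.703, 1.08 and 0.986 TPM in coarctation left kidneys, 0.404, 0.439 and 0.705 in coarctation right kidneys, 2.37 and 1.18 in sham left kidneys and 4.59 and 1.49 in sham right kidneys. In TPM, Col7a1, the anchoring fibril collagen, was lower in each coarctation library than in any sham library of either side. It was chosen for description after its values were seen. On log2 CPM, 12.0% of all tested genes were lower in coarctation without overlap on the left and 9.17% on the right. The highest deposited transcript length of Col7a1 exceeded the lowest by 4.30 times. Counts rebuilt from these lengths, as described further on, were 42 to 142 in coarctation and 85 to 176 in sham libraries.

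Laminins, the self-assembling cross-shaped trimers of basement membranes, were represented most strongly by Lamb2 and Lama5. Lamb2 was at 42.1, 51.9 and 41.2 TPM in coarctation left kidneys, 38.1, 67.4 and 69.3 in coarctation right kidneys, 52.1 and 54.1 in sham left kidneys and 52.8 and 56.8 in sham right kidneys. Lama5 was at 26.7, 46.7 and 28.7 TPM in coarctation left kidneys, 28.4, 52.3 and 45.2 in coarctation right kidneys, 35.0 and 39.8 in sham left kidneys and 52.0 and 29.1 in sham right kidneys. Coarctation and sham overlapped for Lama5 on both sides and for Lamb2 on the right, and on the left all 3 coarctation values of Lamb2 were below the sham values, by as little as 51.9 against 52.1 TPM. The β2 chain of Lamb2 exceeded the β1 chain of Lamb1 by a TPM ratio of 8.84 to 46.5, and the α5 chain of Lama5 exceeded the α4 chain of Lama4 by 2.40 to 5.89, each in 10 of 10 libraries. Lamc1, the γ1 chain common to most laminins, lay at 3.14 to 11.9 TPM. Lama2 was at 8.53, 3.43 and 4.45 TPM in coarctation left kidneys, 0.467, 1.56 and 2.76 in coarctation right kidneys, 3.49 and 7.90 in sham left kidneys and 4.49 and 5.69 in sham right kidneys. Lama2 encodes the α2 chain, best known from the muscle cell basement membrane, and the coarctation right kidneys were all below the lowest value of every other group. For this gene the deposited transcript length differed strongly between libraries, as described further on.

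Agrn, a heparan sulfate proteoglycan of basement membranes, and Nid1, which links laminin to collagen IV, led their group. Agrn was at 15.3, 21.6 and 15.7 TPM in coarctation left kidneys, 4.75, 19.8 and 20.2 in coarctation right kidneys, 23.2 and 25.4 in sham left kidneys and 26.8 and 18.1 in sham right kidneys. Its lowest value, in the right kidney of coarctation mouse 1, stood far under the other 9, which ran from 15.3 to 26.8 TPM. Nid1 was at 3.88, 3.75 and 3.52 TPM in coarctation left kidneys, 5.38, 2.93 and 3.98 in coarctation right kidneys, 2.74 and 4.02 in sham left kidneys and 3.13 and 4.50 in sham right kidneys. In left kidneys the coarctation values of Agrn were below both sham values, its right kidneys overlapped, and Nid1 overlapped on both sides. Nid2 (0.166 to 1.17 TPM) and Hspg2, the gene of perlecan (0.253 to 0.845 TPM), were low throughout.

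Among elastic fibre genes Emilin1, whose product sits at the surface of elastic fibres in vessel walls, was the most abundant. Emilin1 was at 29.1, 58.5 and 29.1 TPM in coarctation left kidneys, 9.82, 44.3 and 24.1 in coarctation right kidneys, 28.7 and 23.7 in sham left kidneys and 39.9 and 35.7 in sham right kidneys. The right kidney was lower than the left in 3 of 3 coarctation mice and higher in 2 of 2 sham mice. Elastin itself was less abundant, and its highest values were in the left kidneys of coarctation mice 2 and 3. Eln was at 1.44, 5.67 and 4.70 TPM in coarctation left kidneys, 1.04, 3.89 and 3.18 in coarctation right kidneys, 2.48 and 2.30 in sham left kidneys and 1.11 and 1.60 in sham right kidneys. Right was below left in all 5 mice. Fbn1, the scaffold protein fibrillin-1, lay at 0.574 to 3.79 TPM, Mfap5 at 0.0421 to 1.55 TPM and Fbln5 at 0.0341 to 0.669 TPM. Mfap4 did not exceed 0.191 TPM and was not tested.

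Among the small leucine-rich proteoglycans, the coefficient of variation over all libraries was 26.2% for Bgn, 105% for Ogn, 243% for Dcn and 271% for Lum. Bgn was at 54.7, 62.3 and 82.4 TPM in coarctation left kidneys, 54.7, 84.1 and 109.5 in coarctation right kidneys, 51.1 and 89.8 in sham left kidneys and 62.4 and 68.2 in sham right kidneys. Bgn encodes biglycan, and its groups overlapped. Ogn encodes osteoglycin, also called mimecan, a keratan sulfate proteoglycan that binds collagen fibrils (chromosome 13, 49608046 to 49624501, plus strand, 7 exons, lying within an intron of Cenpp). Ogn was at 64.5, 19.7 and 86.0 TPM in coarctation left kidneys, 32.2, 23.9 and 14.7 in coarctation right kidneys, 3.62 and 12.1 in sham left kidneys and 4.11 and 3.91 in sham right kidneys. All 6 coarctation libraries exceeded all 4 sham libraries, the lowest of the former being 14.7 TPM and the highest of the latter 12.1 TPM. These libraries are the paired kidneys of 3 and 2 mice. On log2 CPM, 9.73% of all tested genes were higher in coarctation without overlap on the left and 7.21% on the right. The share for both sides together was not computed. The host gene Cenpp lay at 1.56 to 7.14 TPM, below Ogn in most libraries. The 250 bases before its RefSeq start (chr13:49607765-49608014, plus strand, GRCm38.p6, 42.0% G and C) are shown because Ogn was the one matrix gene with a median of 10 TPM or more whose coarctation and sham libraries did not overlap on either side.
Ogn: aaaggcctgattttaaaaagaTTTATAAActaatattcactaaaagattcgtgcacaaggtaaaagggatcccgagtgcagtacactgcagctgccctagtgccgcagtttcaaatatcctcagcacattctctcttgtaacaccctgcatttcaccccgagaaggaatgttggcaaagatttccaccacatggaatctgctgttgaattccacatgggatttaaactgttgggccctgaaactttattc
Capitals mark TATAAA on the plus strand and its reverse complement, which overlap. This motif occurs in 12.4% of all 32851 windows of this length, and the CCAAT box, GC box and cAMP response element, found in 33.9%, 32.7% and 1.55% of them, were not in the Ogn window.

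Dcn and Lum, decorin and lumican, are hallmarks of fibroblast matrix, and both were carried by 1 library. Dcn was at 1.04, 1.81 and 0.533 TPM in coarctation left kidneys, 42.5, 0.0326 and 0.0571 in coarctation right kidneys, 2.74 and 1.63 in sham left kidneys and 3.35 and 0.158 in sham right kidneys. The right kidney of coarctation mouse 1 held 42.5 TPM against at most 3.35 TPM in the other 9 libraries. Lum reached 1.58 TPM in the same library and did not exceed 0.0869 TPM elsewhere. It was not tested. The fibroblast marker Dpt was also highest there, at 0.738 TPM, against at most 0.174 TPM elsewhere, and so were the antigen presentation genes Cd74 at 408 TPM and H2-Aa at 104 TPM. The other measured fibroblast markers were not highest there: Mfap2 was at 64.2 TPM, Pdgfra at 0.265, Scara5 at 0.173, Pi16 at 0.136, Col14a1 at 0.0259 and Clec3b at 0. Differences that rest on this library are given below without coarctation mouse 1. Dcn and Lum were chosen for description after their values were seen.

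Sparc, a collagen-binding matricellular protein, was the most abundant of the 50 genes. Sparc was at 83.7, 118 and 121 TPM in coarctation left kidneys, 55.2, 139 and 132 in coarctation right kidneys, 69.4 and 119 in sham left kidneys and 76.2 and 129 in sham right kidneys. Its lowest value, too, was in the right kidney of coarctation mouse 1, and the groups overlapped. Fn1 was at 4.16, 16.7 and 11.3 TPM in coarctation left kidneys, 7.68, 8.64 and 8.27 in coarctation right kidneys, 11.3 and 4.07 in sham left kidneys and 3.72 and 3.69 in sham right kidneys. Fibronectin was above both sham right values in all 3 coarctation right kidneys, whereas the left kidneys overlapped. Thbs1 (thrombospondin-1) lay at 1.99 to 5.57 TPM, and Postn (periostin) and Tnc (tenascin-C), matrix proteins of tissue repair, did not exceed 1.86 and 1.13 TPM.

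Vtn encodes vitronectin, an adhesive glycoprotein of plasma and matrix that binds integrins (chromosome 11, 78499091 to 78502324, plus strand, 8 exons). Vtn was at 0, 0.0414 and 0 TPM in coarctation left kidneys, 4.13, 10.4 and 5.98 in coarctation right kidneys, 2.96 and 0.746 in sham left kidneys and 0.500 and 0.286 in sham right kidneys. Coarctation left kidneys held 0, 2 and 0 counts of it, at or under the 3 counts that a count of 0 allows, and the lowest coarctation right value, 4.13 TPM, exceeded the highest of all other libraries, 2.96 TPM in the left kidney of sham mouse 1. The 221 bases before the earliest annotated start (chr11:78498870-78499090, plus strand, GRCm38.p6, 49.8% G and C) are shown because Vtn had the smallest p of the set between the kidneys of coarctation mice.
Vtn: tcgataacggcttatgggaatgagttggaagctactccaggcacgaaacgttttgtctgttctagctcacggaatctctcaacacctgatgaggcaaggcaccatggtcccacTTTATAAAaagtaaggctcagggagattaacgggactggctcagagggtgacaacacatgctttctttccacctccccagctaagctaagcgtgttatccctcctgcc
Capitals again mark TATAAA with its overlapping reverse complement, letters found in 11.0% of windows of this length. The CCAAT box, GC box and cAMP response element, present in 31.2%, 31.8% and 1.52% of such windows, were not found. A motif match is a description of the letters and not evidence of binding.

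Of the genes of crosslinking and remodelling, Timp3 and Timp2 were the most abundant. Timp3 was at 72.5, 47.0 and 87.4 TPM in coarctation left kidneys, 57.3, 76.0 and 96.8 in coarctation right kidneys, 71.6 and 59.8 in sham left kidneys and 65.2 and 49.4 in sham right kidneys. Timp3 encodes an inhibitor that is itself bound to matrix, and it shares exon sequence with Syn3 on the opposite strand, which lay at 1.28 to 6.02 TPM. Timp2 was at 16.7, 36.9 and 26.5 TPM in coarctation left kidneys, 16.1, 55.9 and 44.9 in coarctation right kidneys, 31.5 and 72.5 in sham left kidneys and 14.8 and 67.7 in sham right kidneys. Timp2, an inhibitor that also takes part in activating Mmp2, was low in both kidneys of coarctation mouse 1, and its groups overlapped. Timp1 was at 3.02, 27.5 and 4.83 TPM in coarctation left kidneys, 26.4, 0.0430 and 1.70 in coarctation right kidneys, 5.60 and 0.583 in sham left kidneys and 0.123 and 0 in sham right kidneys. Timp1, the inducible inhibitor, ranged from 0 to 27.5 TPM, with its high values in the left kidney of coarctation mouse 2 and the right kidney of coarctation mouse 1. Mmp2 was at 0.330, 0.0620 and 0.256 TPM in coarctation left kidneys, 0.0208, 0.0641 and 0.0338 in coarctation right kidneys, 0.106 and 0.510 in sham left kidneys and 0.640 and 1.47 in sham right kidneys. Mmp2, the gelatinase that cleaves basement membrane collagen (chromosome 8, 92827291 to 92853420, plus strand, 13 exons), was under 0.1 TPM in all 3 coarctation right kidneys and at 0.64 and 1.47 TPM in the sham right kidneys. The crosslinking enzymes Lox and Loxl1 lay at 2.55 to 6.71 and 0.617 to 3.44 TPM.

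**Figure D2:**
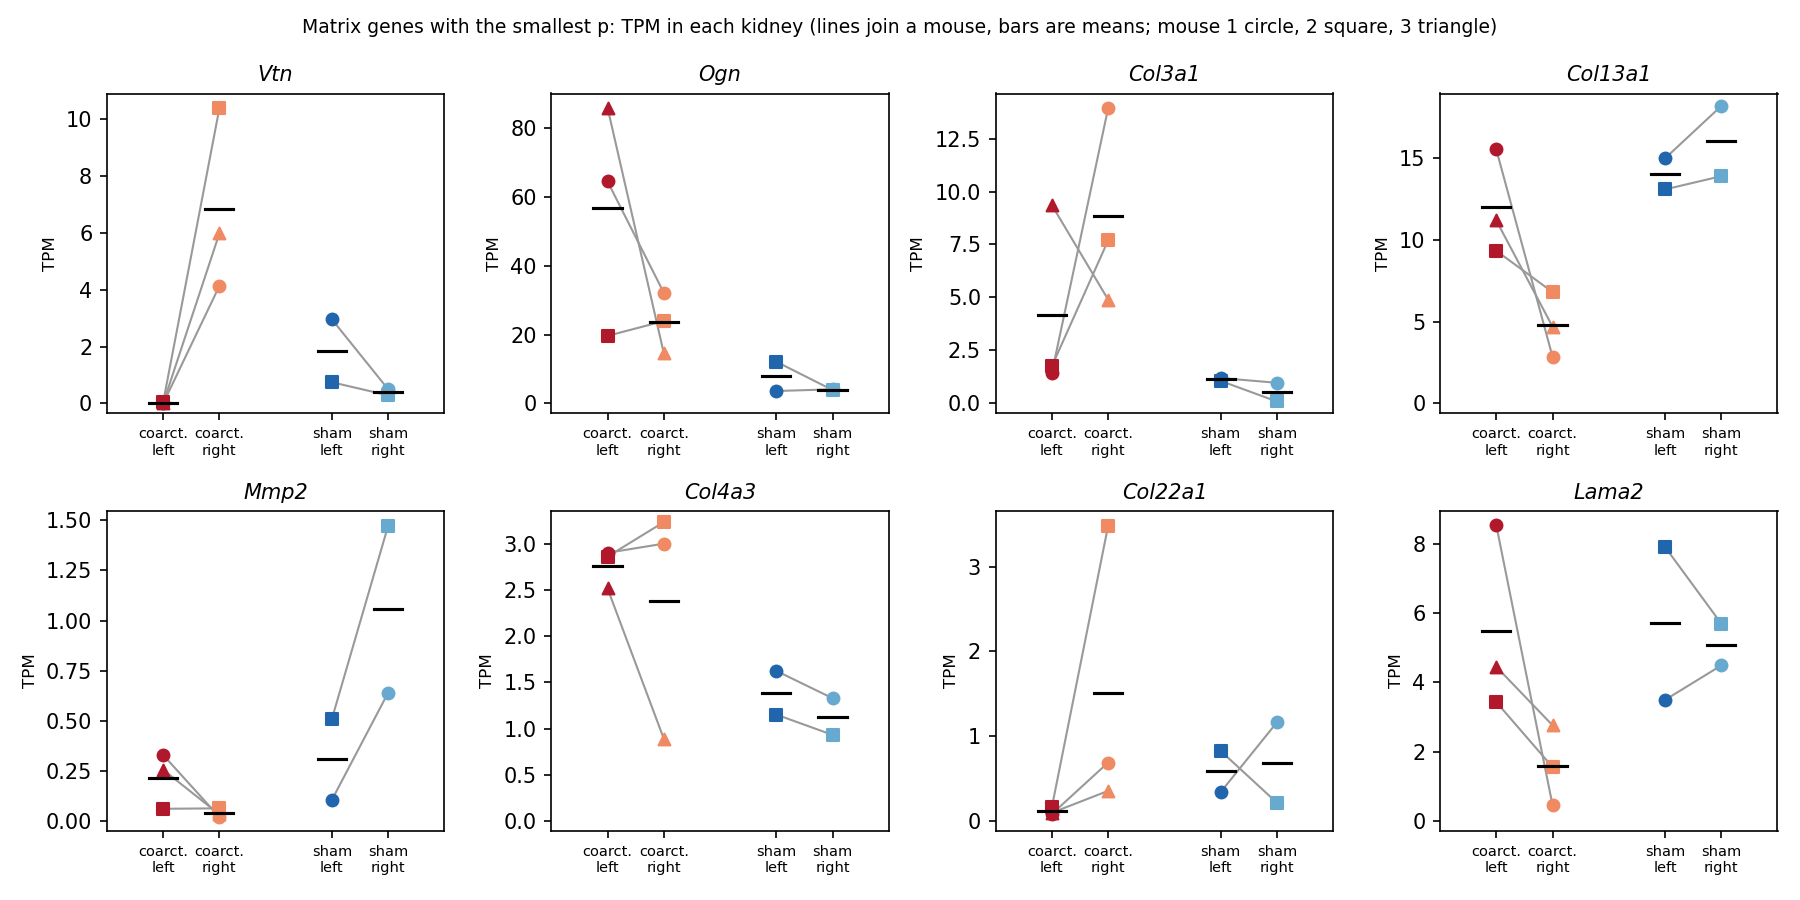
TPM (vertical axes, linear, one scale per gene) in each kidney for 8 matrix genes with small p-values; lines join the kidneys of a mouse, marker shapes show the mouse number and bars are group means. Vtn lies at 0 to 0.0414 TPM in coarctation left and at 4.13 to 10.4 TPM in coarctation right kidneys, and Col13a1 lies lowest in coarctation right kidneys, at 2.86 to 6.80 TPM.

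The right and left kidneys of the coarctation mice address what differs between renin cells above and below the narrowing in the same animals. Vtn was higher in the right kidney and Col13a1, Lama2, Ogn and Mmp2 were lower at an unadjusted p under 0.05, but no matrix gene passed an adjusted p of 0.05, which no gene of all 18825 tested did (0%) in edgeR's quasi-likelihood test of the 4 groups. With the mouse as a block 0.0266% of all genes passed, none of them a matrix gene. At an unadjusted p under 0.05, 7 of the 48 tested matrix genes differed, against a background of 4.63% of all genes. Higher were 3 (Vtn, Col22a1 and Col5a1, background 2.37%) and lower were 4 (background 2.25%). The matrix genes were chosen with earlier results of these data known. Such counts, here and below, are therefore descriptions and cannot test for an excess of matrix genes. Over the 48 genes, 22 had a positive and 26 a negative log2 difference, with a median of -0.09, and over all tested genes the median was 0.02.

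For Vtn the mean was 6.83 ± 3.21 TPM (SD, n = 3) in coarctation right and 0.0138 ± 0.0239 TPM (SD, n = 3) in coarctation left kidneys. The rounded counts summed to 804 in the right and 2 in the left kidneys, a ratio of 380.5 per unit of depth with an exact 95% interval of 105 to 3147 that covers counting error only. The interval treats these length-scaled estimates as reads. The highest deposited transcript length of Vtn exceeded the lowest by 3.06 times. Counts rebuilt from these lengths, as described further on, were 0, 2 and 0 in left and 69, 436 and 212 in right kidneys. The fitted log2 difference was 8.19 (SE 1.24, unadjusted p = 1.48e-05, adjusted p = 0.139) and depends on how zeros are handled, so that it is no bound on the true ratio. Within mice 1, 2 and 3 the log2 difference was 6.45, 6.44 and 6.75. With the mouse as a block the fitted difference was 8.49 (SE 1.26, adjusted p = 0.0734 by edgeR). Over the alternatives tried the adjusted p of Vtn ran from 6.83e-08 to 0.740, under the 0.05 threshold with DESeq2 and without a filter on low counts, and at 0.740 without coarctation mouse 1. Other liver-type plasma protein genes (Alb, Apoa1, Ttr and Fgb) summed to 1.16 to 1.91 TPM in coarctation left and 1.22 to 2.72 TPM in coarctation right kidneys. The highest sum of any library was 5.06 TPM, in the right kidney of sham mouse 1. Their relation to the Vtn difference was not tested.

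Col13a1 averaged 12.0 ± 3.17 TPM (SD, n = 3) in coarctation left and 4.78 ± 1.97 TPM (SD, n = 3) in coarctation right kidneys. Its log2 difference was -1.56 (SE 0.42, unadjusted p = 0.00325, adjusted p = 0.921) by edgeR, and right was lower in 3 of 3 mice. Without coarctation mouse 1 the difference was -1.05 (unadjusted p = 0.0643), and that of Col5a1, 1.70 with all mice, was 1.51 (unadjusted p = 0.0941). Ogn had a mean of 56.7 ± 33.9 TPM (SD, n = 3) in left and 23.6 ± 8.78 TPM (SD, n = 3) in right kidneys and a fitted log2 difference of -1.44 (SE 0.57, unadjusted p = 0.0285, adjusted p = 1.00). Its kidneys differed in opposite directions, however, with right below left in mice 1 and 3 (-1.10 and -2.78) and slightly above in mouse 2 (0.13). Mmp2 differed by -2.64 (SE 1.06, unadjusted p = 0.0293, adjusted p = 1.00), on counts of 2, 6 and 3 in the right kidneys, and in mouse 2 both kidneys held 6. Without coarctation mouse 1 it was -1.94 (unadjusted p = 0.178).

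Lama2 and Col22a1 also stood among the 4 smallest p-values, with log2 differences of -2.03 (SE 0.60, unadjusted p = 0.00651, adjusted p = 0.962) and 3.46 (SE 0.88, unadjusted p = 0.00317, adjusted p = 0.921). The value of Lama2 was -1.06 without coarctation mouse 1 (unadjusted p = 0.105). Both differences rest on the transcript length that the deposited table assigns to each library. The average length of Lama2 was 904, 3200 and 1239 bases in coarctation left kidneys of mice 1, 2 and 3 and 8847, 4746 and 5836 bases in their right kidneys. When counts were rebuilt as TPM times the length of each library, Lama2 held 262, 407 and 203 counts on the left and 162, 307 and 543 on the right, and the difference became 0.14 (unadjusted p = 0.778). Col22a1 held 22, 49 and 28 rebuilt counts on the left and 52, 81 and 56 on the right, a difference of 0.84 (unadjusted p = 0.262) against 3.46 with the deposited counts. With rebuilt counts 3 of the 48 genes, Vtn, Col13a1 and Mmp2, kept an unadjusted p under 0.05 (background 4.41%). Over the 50 genes the highest length exceeded the lowest by 14.3 times for Col22a1, 10.2 for Col15a1 and 9.78 for Lama2, but by 1.12 times for Ogn and 1.15 times for Col18a1.

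**Figure D3:**
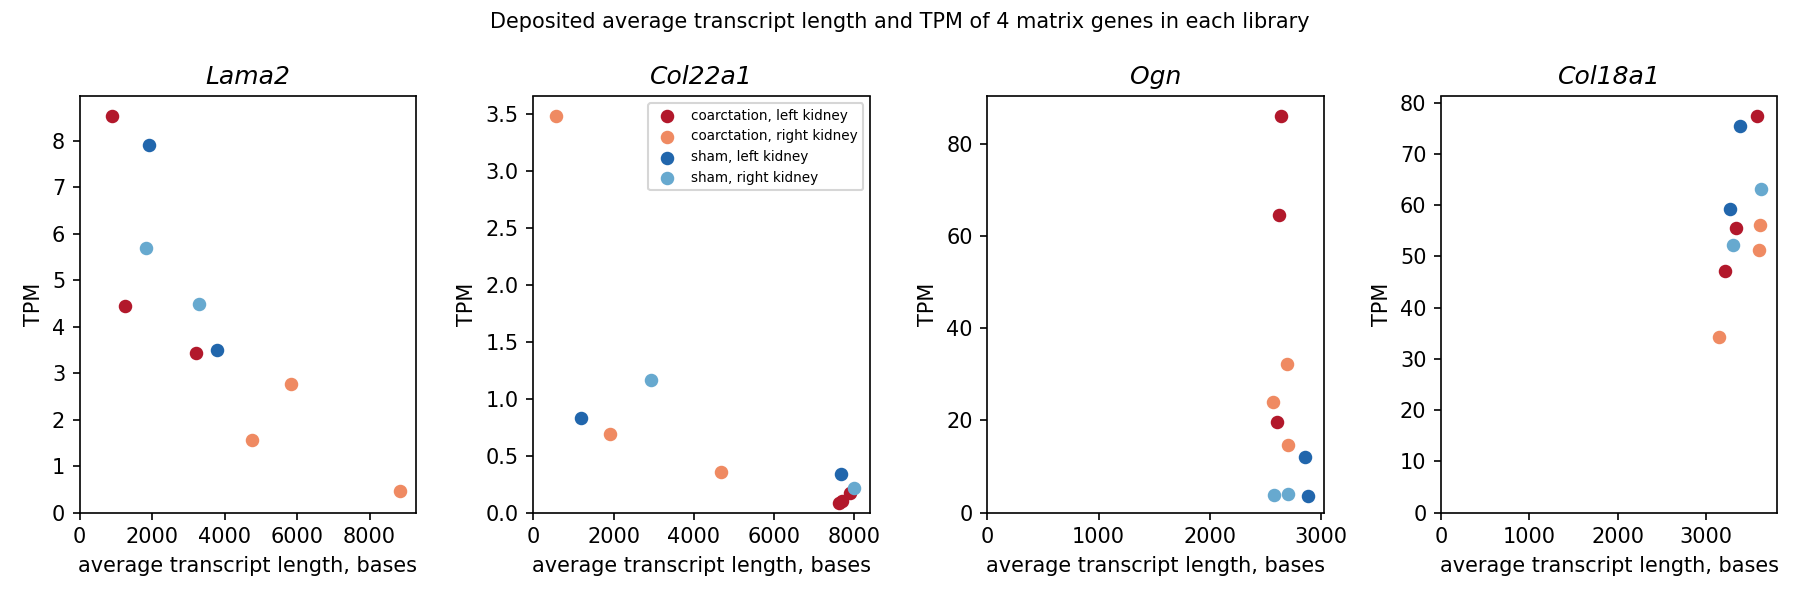
Deposited average transcript length (horizontal axis, bases) against TPM (vertical axis) in each of the 10 libraries for 4 matrix genes, coloured by group. Lama2 and Col22a1 reach their highest TPM where the length is short, 8.53 TPM at 904 bases for Lama2, whereas Ogn varies from 3.62 to 86.0 TPM at nearly one length.

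Direction within mice on log2 CPM, which depends on the scaling of the libraries, put the right kidney above the left in 3 of 3 coarctation mice for 4 of the 48 genes (Col5a1, Col22a1, Lamc1 and Vtn, background 14.5%). It put the right below the left for 10 (Col1a2, Col4a1, Col18a1, Col7a1, Col13a1, Lama2, Eln, Emilin1, Loxl1 and Mmp2, background 14.0%). In TPM, Lama5, Mfap5 and Bgn were also higher on the right in 3 of 3 mice, whereas Col1a2 and Col4a1 were slightly higher on the right in mouse 1 and Mmp2 in mouse 2. Among these, the blocked edgeR fit gave Col18a1 a log2 difference of -0.51 (SE 0.14, adjusted p = 0.707) and Emilin1 one of -0.90 (SE 0.31, adjusted p = 0.785). These 2 genes, with Vtn, Col5a1, Col13a1, Col22a1 and Lama2, were the 7 of 48 at an unadjusted p under 0.05 with the mouse as a block (background 5.93%). On log2 CPM the right and left groups did not overlap, with right higher, for Col5a1, Col22a1 and Vtn (3 of 48, background 6.11%) and, with right lower, for Col18a1, Col7a1, Col13a1, Lama2 and Mmp2 (5 of 48, background 5.40%). In TPM, Col18a1, Col7a1 and Mmp2 overlapped and Lamc1 did not. By role, 4 of 5 elastic fibre genes and 5 of 6 crosslinking and remodelling genes had a negative sign, while 4 of 5 fibrillar collagens had a positive one, with 0, 1 and 1 of them at an unadjusted p under 0.05, where 51.6% of all tested genes were positive. In sham mice the crosslinking and remodelling genes had the same split, 1 positive and 5 negative. Summed markers of other cells were also compared between sides. Fibroblast markers were 26.1 to 45.9 TPM in coarctation left and 65.5 to 80.4 in coarctation right kidneys, and right was higher in all 5 mice, sham included. Over all libraries 1 gene, Mfap2, made up 96.9% of this sum. Of the 6 tested fibroblast markers 4 had a positive and 2 a negative log2 difference between coarctation sides. Distal nephron markers were 90.7 to 277 and 187 to 984 TPM, higher on the right in 3 of 3 coarctation mice. Leukocyte markers were 47.5 to 362 and 241 to 588 TPM, higher on the right in mice 1 and 3 and lower in mouse 2. Their part in the matrix differences was not tested.

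Sham kidneys give the difference between sides without a narrowing, from 2 mice. No gene passed an adjusted p of 0.05 (0%), and at an unadjusted p under 0.05 the only matrix gene was Timp1, 1 of 48 against a background of 1.94% in either direction and 1.10% for lower genes. With the mouse as a block the 1 gene at that level was Col4a5 (background 3.01%), and with rebuilt counts there were 4 of 48, Timp1, Col3a1, Col4a5 and Vtn (background 1.88%). Timp1 counts summed to 112 in sham left and 2 in sham right kidneys, a ratio of 54.9 per unit of depth (exact 95% interval 14.8 to 459, counting error only), with a fitted log2 difference of -5.66 (SE 2.55, unadjusted p = 0.0362, adjusted p = 1.00). Within mice the difference was -4.67 and -2.81, and without sham mouse 1 the fitted value was -6.62 (unadjusted p = 0.213). Next in order of p stood Col4a5 at -1.13 (SE 0.53, unadjusted p = 0.0539, adjusted p = 1.00), Vtn at -2.29 (SE 1.05, unadjusted p = 0.0552, adjusted p = 1.00) and Fn1 at -1.06 (SE 0.55, unadjusted p = 0.0784, adjusted p = 1.00), each lower on the right in both mice. Without sham mouse 1 these values were -0.67, -1.41 and -0.13, with unadjusted p of 0.328, 0.349 and 0.858, and without coarctation mouse 1 the unadjusted p of Fn1 was 0.0498. The median over the 48 genes was -0.14, against 0.02 over all tested genes. In sham mice 10 of 48 genes were higher on the right in 2 of 2 mice and 16 lower, where 24.5% of all genes were in each class.

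Whether the sides differed differently after coarctation than after sham was tested as the difference between these side differences. No gene passed an adjusted p of 0.05 (0%). At an unadjusted p under 0.05 there were 4 of 48 matrix genes, against a background of 3.05%. Vtn and Col22a1 were positive (background 1.68%), and Mmp2 and Col13a1 were negative (background 1.37%). With the mouse as a block there were again 4 (Vtn, Mmp2, Col13a1 and Emilin1, background 4.15%), and with rebuilt counts 4 (Vtn, Mmp2, Col3a1 and Col4a5, background 2.94%). Vtn was higher on the right in 3 of 3 coarctation mice and lower on the right in 2 of 2 sham mice (-2.53 and -1.26 on the log2 scale), and the difference of the differences was 10.48 (SE 1.63, unadjusted p = 3.52e-05, adjusted p = 0.391) by edgeR. Its size rests on the near-zero left kidneys in the same way as above. Without coarctation mouse 1 it was 10.2 and without sham mouse 1 it was 9.60, with adjusted p of 0.683 and 1.00. Over the alternatives its adjusted p ran from 1.49e-08 to 1. Mmp2 differed by -4.37 (SE 1.60, unadjusted p = 0.0199, adjusted p = 1.00), Col13a1 by -1.71 (SE 0.67, unadjusted p = 0.025, adjusted p = 1.00) and Col22a1 by 3.37 (SE 1.37, unadjusted p = 0.0331, adjusted p = 1.00). Without coarctation mouse 1 the values of Mmp2 and Col13a1 were -3.66 (unadjusted p = 0.0738) and -1.20 (unadjusted p = 0.124), and without sham mouse 1 they were -4.17 (unadjusted p = 0.0542) and -1.65 (unadjusted p = 0.0904), with Col22a1 at 5.38. With rebuilt counts the value of Col22a1 was 0.39 (unadjusted p = 0.737). Vtn was the only one of the 48 genes that was higher on the right in all coarctation mice and lower in all sham mice (background 3.22%), and 4, Col7a1, Col13a1, Emilin1 and Mmp2, showed the opposite (background 3.35%). These directions are on log2 CPM, and in TPM they held for all but Mmp2, whose kidneys were nearly equal in coarctation mouse 2.

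Left kidneys of coarctation and sham mice were compared next, between different animals. No gene passed an adjusted p of 0.05 (0%), and 5 of 48 matrix genes had an unadjusted p under 0.05, against 4.75% of all genes. Higher in coarctation were Ogn, Col3a1 and Col4a3 (3 of 48, background 1.84%), and lower were Vtn and Col22a1 (2 of 48, background 2.91%). With rebuilt counts the genes at that level were Vtn, Ogn and Col6a3 (3 of 48, background 4.31%). Ogn averaged 56.7 ± 33.9 TPM (SD, n = 3) in coarctation and 7.88 ± 6.03 TPM (SD, n = 2) in sham left kidneys, with a log2 difference of 3.12 (SE 0.64, unadjusted p = 0.000979, adjusted p = 0.912). It stayed at 2.47 without sham mouse 1 and 2.97 without coarctation mouse 1, and the ranges, 19.7 to 86.0 and 3.62 to 12.1 TPM, did not overlap. The Ogn difference also passed an adjusted p of 0.05 with DESeq2 (0.0112) and without the filter on low counts, within a range of 4.09e-07 to 1 over the alternatives.

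Vtn counts summed to 121 in sham left and 2 in coarctation left kidneys, a ratio of 94.3 per unit of depth (exact 95% interval 25.6 to 788, counting error only), and the fitted log2 difference was -6.22 (SE 1.31, unadjusted p = 0.000158, adjusted p = 0.912). Without sham mouse 1, whose left kidney held 92 of the 121 counts, it was -5.03 (unadjusted p = 0.00243). Col4a3 had means of 2.76 ± 0.212 TPM (SD, n = 3) and 1.39 ± 0.334 TPM (SD, n = 2) and differed by 1.26 (SE 0.53, unadjusted p = 0.0403, adjusted p = 0.912). Its unadjusted p was 0.0850 without coarctation mouse 1, and without sham mouse 1 it was 0.0891. Its deposited length was 2777 bases in the left kidney of coarctation mouse 2, against 7447 and 7449 in mice 1 and 3. Rebuilt counts of Col4a3 were 734, 294 and 690 in coarctation left and 367 and 337 in sham left kidneys, and thus overlapped. Col4a4, which shares the printed start region, differed by -0.17 (SE 0.49) in the same test. Col3a1 differed by 2.17 (SE 0.91, unadjusted p = 0.0457, adjusted p = 0.912), and without sham mouse 1 its unadjusted p was 0.111. The difference of Col22a1, -2.12 with all mice, had an unadjusted p of 0.107 without coarctation mouse 1. The 48 genes had a median of 0.08 against -0.02 over all tested genes. On log2 CPM the groups did not overlap, with coarctation higher, for 7 of the 48 (background 9.73%) and, with coarctation lower, for 4 (background 12.0%). In TPM, Col1a2 of the former overlapped, and Col4a5, Lamb2 and Agrn joined the latter.

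Right kidneys of coarctation and sham mice were compared in the same way. No gene passed an adjusted p of 0.05 (0%), and 13 of 48 matrix genes had an unadjusted p under 0.05, against a background of 3.82% of all genes. Higher in coarctation were 8 (Col3a1, Ogn, Vtn, Timp1, Col4a5, Tnc, Fn1 and Col4a3, background 1.91%), and lower were 5 (Mmp2, Col13a1, Col7a1, Lama2 and Fbn1, background 1.92%). Since the genes were chosen with earlier results of these data known, these counts cannot test for an excess of matrix genes. With counts rebuilt from library lengths the number was 9 of 48 (background 3.78%), and Col4a3, Col7a1, Lama2 and Fbn1 were not among them. Without coarctation mouse 1, Timp1, Tnc, Lama2, Fbn1 and Col4a3 had an unadjusted p above 0.05 (0.0583, 0.0794, 0.0725, 0.0673 and 0.176). Without sham mouse 1 this held for Col7a1, Col4a5, Fn1, Fbn1 and Col4a3 (0.0870, 0.194, 0.0914, 0.149 and 0.102), and Tnc moved from 2.47 to 3.18. The number ran from 8 to 14 when single libraries or mice were left out. Only 2 sham right libraries enter, and several of these genes lie under 1 TPM in them, so that the filter on low counts passes them through the group where they are higher.

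Col3a1 averaged 8.84 ± 4.62 TPM (SD, n = 3) in coarctation right and 0.535 ± 0.624 TPM (SD, n = 2) in sham right kidneys, with a log2 difference of 4.33 (SE 0.92, unadjusted p = 0.00181, adjusted p = 0.995). Without coarctation mouse 1, the library with the highest Dcn and Dpt, it was 3.67, and without sham mouse 1 it was 6.58. The coarctation right kidneys of mice 2 and 3 had Dcn at 0.0326 and 0.0571 TPM and Dpt at 0.0288 and 0 TPM. In these kidneys Mfap2 was at 72.6 and 79.4 TPM, against 33.6 and 61.5 TPM in sham right kidneys. Pdgfra was at 0.528 and 0.432 TPM, against 0.637 and 0.253 TPM. The part of fibroblast RNA in the Col3a1 difference was not tested. Ogn averaged 23.6 ± 8.78 TPM (SD, n = 3) against 4.01 ± 0.139 TPM (SD, n = 2) and differed by 2.73 (SE 0.65, unadjusted p = 0.00233, adjusted p = 0.995), at 2.29 without coarctation mouse 1 and 2.66 without sham mouse 1. Its left and right comparisons have no library in common, although they come from the same mice, and in both the 3 coarctation kidneys lay above the 2 sham kidneys.

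Vtn was higher in coarctation right than in sham right kidneys, 6.83 ± 3.21 TPM (SD, n = 3) against 0.393 ± 0.152 TPM (SD, n = 2), by 4.26 (SE 0.96, unadjusted p = 0.00254, adjusted p = 0.995) on the log2 scale. Its sign on this side was thus opposite to that on the left. Mmp2 differed by -4.62 (SE 1.15, unadjusted p = 0.00199, adjusted p = 0.995), Col13a1 by -1.64 (SE 0.47, unadjusted p = 0.00392, adjusted p = 0.995) and Col7a1 by -2.37 (SE 0.70, unadjusted p = 0.00483, adjusted p = 0.995). Without sham mouse 1, in which Col7a1 was highest, that value was -1.51 (unadjusted p = 0.0870). Timp1 counts summed to 607 in coarctation right and 2 in sham right kidneys, a ratio of 180.5 per unit of depth (exact 95% interval 49.7 to 1494, counting error only), of which coarctation mouse 1 gave 573. Without that mouse the fitted log2 difference was 3.92 (unadjusted p = 0.0583), against 7.59 (SE 2.43) with it, and without sham mouse 1 it was 10.8. All 6 adhesive and matricellular glycoproteins had a positive sign, 3 of them (Vtn, Tnc and Fn1) at an unadjusted p under 0.05, and 4 of the 5 tested elastic fibre genes had a negative one, 1 of them (Fbn1) at that level, where 47.3% of all tested genes were positive. Of the 6, Postn and Sparc had differences of 0.07 and 0.14. In left kidneys 5 of the 6 adhesive genes had a positive sign.

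Over the 48 genes the median log2 difference on the right was 0.22, with 29 positive and 19 negative, against -0.05 over all tested genes. On log2 CPM the groups did not overlap, with coarctation higher, for 8 genes (Col3a1, Col4a2, Col4a5, Ogn, Fn1, Vtn, Lox and Timp3, background 7.21%) and, with coarctation lower, for 7 (Col7a1, Col13a1, Lama2, Fbn1, Fbln5, Mfap5 and Mmp2, background 9.17%). In TPM, Timp3 overlapped and Col1a2 joined the lower genes. Summed marker levels in coarctation right and sham right kidneys were 65.5 to 80.4 and 39.2 to 62.3 TPM for fibroblasts, 241 to 588 and 88.3 to 224 TPM for leukocytes, and 44.7 to 56.3 and 70.2 to 98.3 TPM for podocytes. All 3 sums separated these groups, and their part in the matrix differences was not tested. Over all libraries Cd74 made up 59.4% of the leukocyte sum and Cdkn1c 39.2% of the podocyte sum. The fibroblast sum was led by Mfap2, at 33.6 to 79.4 TPM in right kidneys, while Pdgfra did not exceed 0.637 TPM, Dpt 0.738 TPM and Col14a1 0.132 TPM in any library. Of the 6 tested fibroblast markers 3 were higher and 3 lower in coarctation right than in sham right kidneys, with a median log2 difference of -0.27. The 5 comparisons share libraries, so that their values for one gene are not independent of each other.

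**Figure D4:**
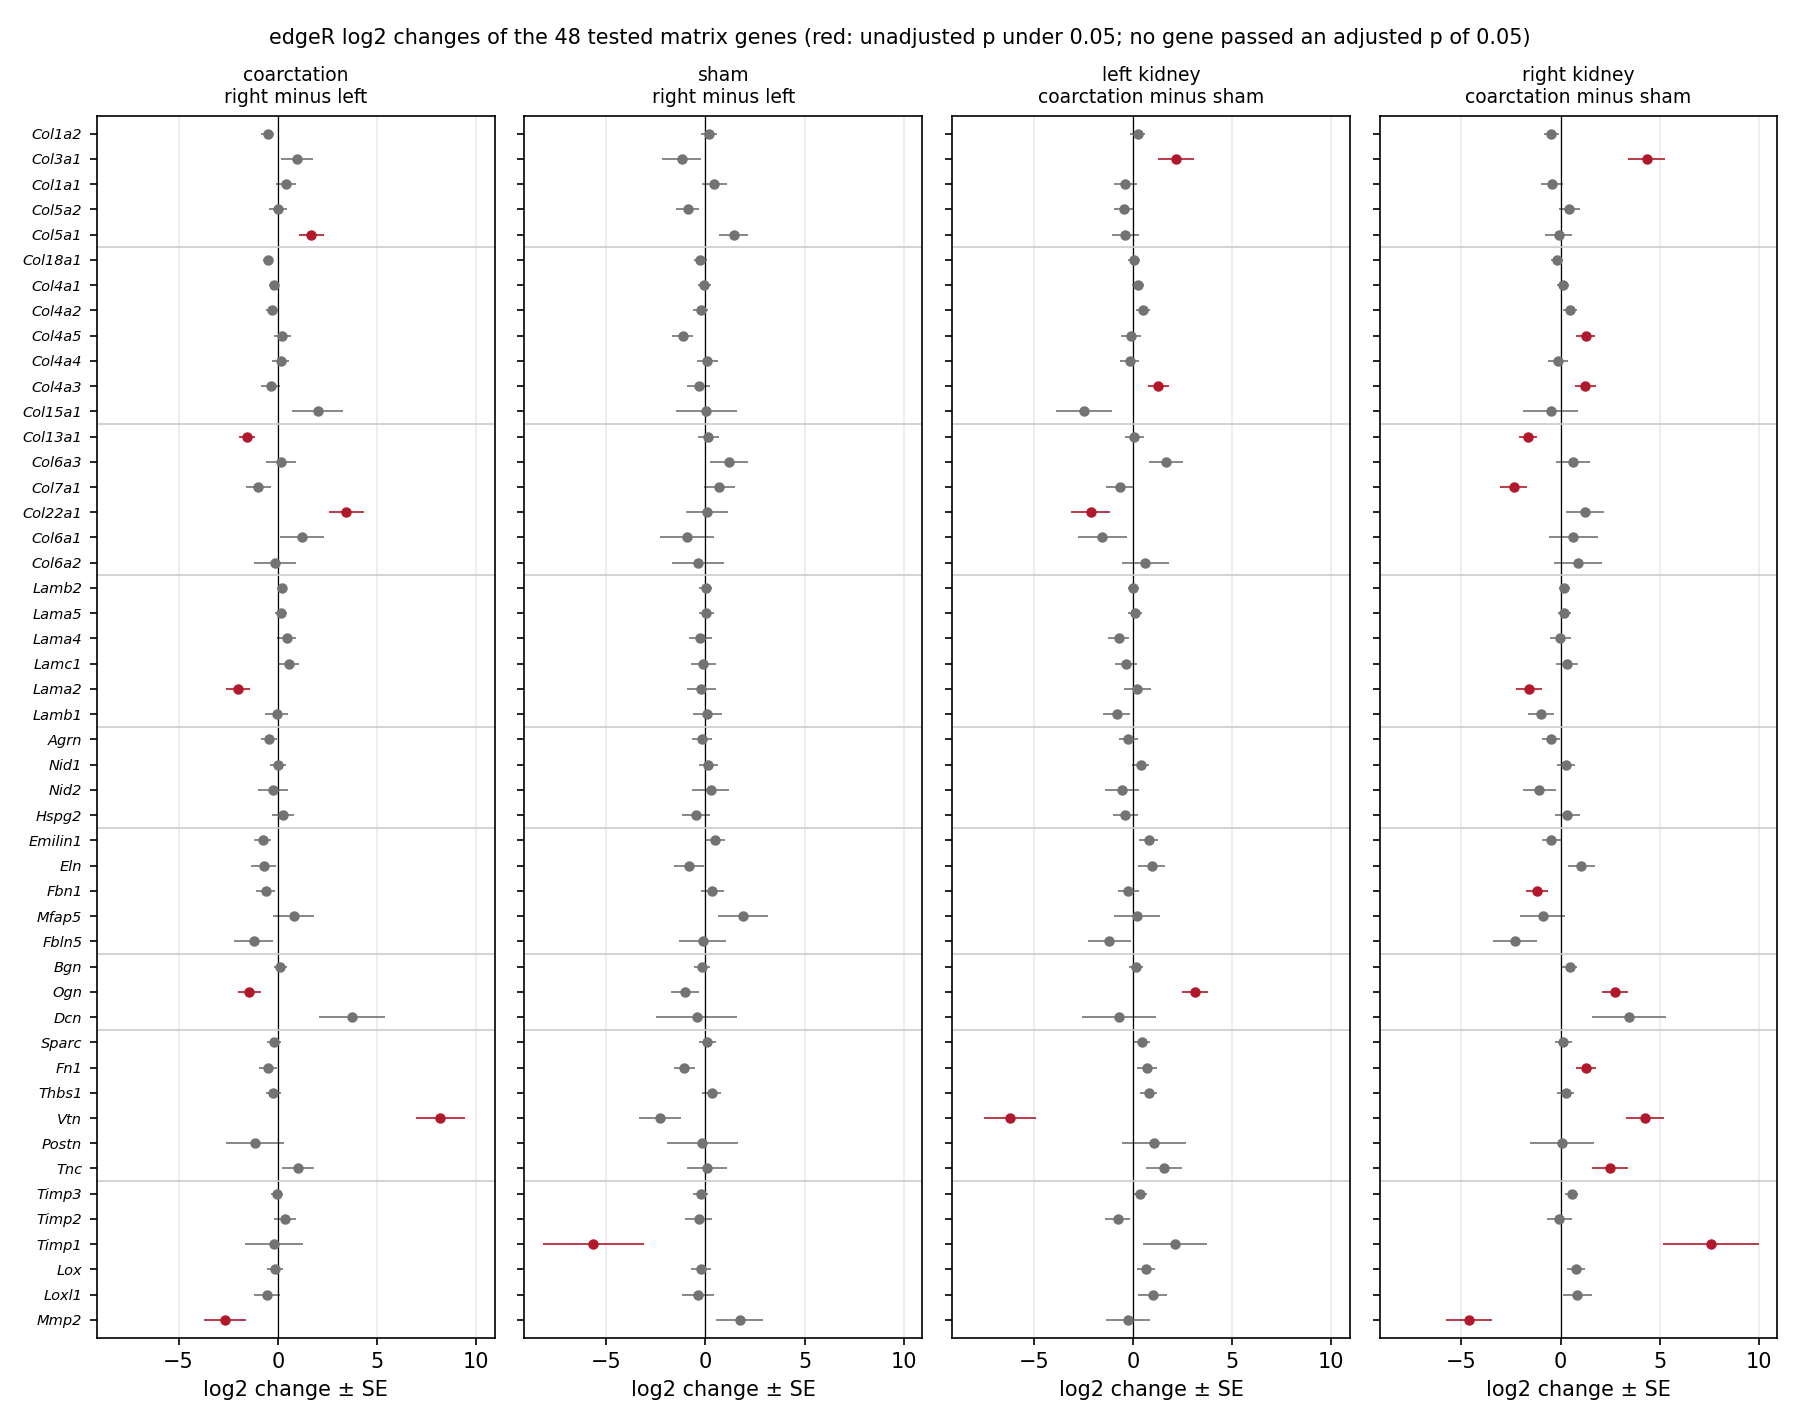
Log2 differences of the 48 tested matrix genes in 4 comparisons (horizontal axes, points with bars of 1 SE, edgeR), with genes in rows by role and an unadjusted p under 0.05 in red. There are 7, 1, 5 and 13 red points from left to right, and none passes an adjusted p of 0.05.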

How the data were processed

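Renin cell RNA of 10 kidneys was analysed from a table of 32648 genes with 3 values per library. The TPM are the authors' abundance values per the file headers, the estimated counts are deposited values computed from TPM scaled by average transcript length and library size per the file headers, and the average transcript length in bases is another deposited value of the authors per the file headers. For estimated counts above 50, 100% could be rebuilt within 1% from TPM and the mean length over libraries. FastQC and the build GRCm38 (mm10) are named per the submitters' processing notes, while quantifier and annotation were not stated in the sources used here. No sample column was left unused.

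Estimated counts were rounded and fitted in R 4.3.3 with edgeR 4.0.16 (filterByExpr, TMM, quasi-likelihood test), with 4 groups over all 10 libraries and 18825 genes. The common dispersion was 0.45, and 6 degrees of freedom remained. Benjamini-Hochberg adjustment covered every tested gene. The threshold was an adjusted p of 0.05. An unadjusted p under 0.05 was used for counts set against the same count over all genes. It was also used to list genes and to choose which values without a mouse are given. Comparisons were right minus left within each treatment, the difference of these, and coarctation minus sham on each side. Mice are biological replicates per the labels' design text, and the kidneys of a mouse share its number. Kidneys of a mouse deviated together from their group means with correlations of 0.127, 0.0496 and 0.0307 in coarctation mice 1, 2 and 3 and 0.398 in the sham mice. With 2 libraries per sham group the deviations mirror each other, so both sham mice must give the same value. A fit with mouse as a block (3 residual degrees of freedom) was therefore run as an alternative. Others were DESeq2 1.42.0, voom in limma 3.58.1, other scaling, no filter on low counts, leaving out libraries or mice, and, added after the data were seen, counts rebuilt with the length of each library. The test was checked on simulated data. Differences within a mouse are on log2 CPM with a prior count of 2. Depth was 20029817 to 32006229 estimated counts, and the intervals of summed counts cover counting error only, since no molecular identifiers were used for counting. These intervals treat the length-scaled estimates as reads.

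Genes were matched by symbol to GENCODE vM21 on GRCm38 (50 of 50) and to RefSeq promoters on GRCm38.p6 (33 of 50). Of the 50, 19 share exon sequence with another gene. For Col3a1 and Col7a1 that gene is a microRNA on the same strand, which counting by strand cannot separate. For the rest it lies on the opposite strand, so that their counts are uncertain where counting did not use strand. Named with every library's value were the 2 most abundant genes of each role and the 4 smallest p-values of each comparison. Of the pathway and marker lists the 2 genes with the smallest p between coarctation sides and the most abundant gene could be named. Other named genes were chosen after their values were seen. The members and lists were chosen with earlier results of these data known. One pathway gene that the naming rule selects is not reported here.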

Additional observations from a re-analysis of the deposited data

Results flagged for a closer look

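For 5 of the 48 tested matrix genes the right kidney differed from the left in one direction in 3 of 3 coarctation mice and in the other direction in 2 of 2 sham mice on log2 CPM. For Mmp2 this rests on the scaling, since in coarctation mouse 2 both kidneys held 6 counts, at 0.0620 TPM left and 0.0641 TPM right. The difference between the side differences, coarctation minus sham on the log2 scale by edgeR, was 10.48 for Vtn (adjusted p = 0.391), -4.37 for Mmp2, -1.71 for Col13a1, -1.69 for Col7a1 and -1.26 for Emilin1 (adjusted p = 1.00 for each of these 4). None passed the 0.05 threshold. Opposite directions of these 2 kinds were found in 3.22% and 3.35% of all tested genes. Groups of 2 or 3 libraries were too small to be searched for single outlying values.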

How the results depend on the processing

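Of 750 values of 33 gene results recomputed under the alternatives, 1 had the other sign: Lama2 between coarctation sides, 0.14 with counts rebuilt from the transcript length of each library against -2.03, where the length itself differs between libraries. Another 22 passed the 0.05 threshold, with DESeq2 or without the filter on low counts. No gene of all tested passed an adjusted p of 0.05 in the 5 comparisons by edgeR or by limma-voom. DESeq2 called 76 genes between coarctation sides, 28 between sham sides, 34 for the difference of these, 39 on the left and 57 on the right, and without the filter edgeR called 112, 19, 63, 67 and 70. At an unadjusted p under 0.05 edgeR had 871, 366, 575, 894 and 720. With the replicate block 5 genes were called between coarctation sides. Leaving out libraries or mice gave 0 to 4 calls between coarctation sides, 0 to 1 for the difference and 0 to 3 on the right, and with the block 0 to 7 and 0 to 2. The coarctation right library of mouse 3 (3 calls in both comparisons that use it when left out) and both kidneys of that mouse (4 calls between coarctation sides, 1 for the difference and 2 on the right) gave the most without the block, and with it sham mouse 2 did (7 calls between coarctation sides when left out). The causes of these changes in calls were not tested. No paired analysis was possible for the left or the right comparison of coarctation with sham because these are different mice. The block changed no other call. With 2 sham mice and a dispersion of 0.45, genes with few counts, such as Mmp2, Timp1 and Vtn, have wide errors.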

Other observations

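Genes that prepare collagen for secretion were expressed above most collagens themselves. P4hb, a subunit of prolyl hydroxylase, lay at 52.3 to 102.6 TPM and Serpinh1, the collagen chaperone HSP47, at 9.74 to 33.9 TPM. Of the 16 tested genes of collagen folding, modification and processing, 3 had a positive and 13 a negative log2 difference between right and left kidneys of coarctation mice, with a median of -0.39 against 0.02 over all tested genes. Serpinh1 was at 23.7, 33.9 and 19.0 TPM in coarctation left and 9.74, 20.4 and 16.1 TPM in coarctation right kidneys, lower on the right in 3 of 3 mice. It was the 1 gene of the list with an unadjusted p under 0.05 (background 4.63%), with a difference of -0.90 (SE 0.35, adjusted p = 1.00 by edgeR). P4ha2, another prolyl hydroxylase subunit, was next at -0.80 (SE 0.41). In sham mice 6 of the 16 were positive and 10 negative, with a median of -0.03.

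TGF-beta is a main inducer of matrix genes. Of its 19 tested ligands, latency proteins, receptors, transducers and targets, 11 were positive and 8 negative between coarctation sides, with a median of 0.18, and none had an unadjusted p under 0.05. The target Cyr61 was the most abundant, at 82.2 to 331 TPM. Tgfb2, the ligand with the smallest p, was at 14.8, 18.3 and 5.54 TPM in coarctation left and 7.51, 10.1 and 6.82 TPM in coarctation right kidneys, with sham left at 6.74 and 10.3 and sham right at 15.3 and 19.3. Its side difference in coarctation minus that in sham was -1.80 (SE 0.67, adjusted p = 1.00 by edgeR). Among 16 matrix proteases outside the 50 genes, 9 were positive and 7 negative. Mmp9 had the smallest p, with 3.36 (SE 1.46, adjusted p = 1.00 by edgeR) at no more than 0.476 TPM, and Htra1 was the most abundant, at 38.5 to 85.8 TPM.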
